A study of Mus musculus with 6 samples.

Results

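The 36 genes described here encode the machinery of the presynaptic terminal, namely the proteins of the synaptic vesicle, the proteins that dock, prime and fuse it, and those that recover it after release. They were chosen by name, on condition that they averaged at least 10 normalized counts over the 6 libraries. All 36 met it, out of 37620 genes listed and 16127 genes that met the same condition and were tested. The deposited symbol matched 35 of them, and Rims1, whose symbol was blank, was found by its Ensembl identifier. RNA came from the PLc, the pre-limbic area of the medial prefrontal cortex, of C57Bl/6 mice aged 9 weeks. Of these, 3 mice had been given saline vehicle and 3 had been given ketamine, a blocker of the NMDA receptor, at 30 mg/kg. Both agents were injected intraperitoneally, daily for 5 days, and the tissue was taken 2 days later. Each mouse gave a library. Values are listed throughout in the order of mice 1, 6 and 10 for saline and mice 3, 5 and 9 for ketamine. Because whole tissue was sequenced, fewer cells of a type and less RNA per cell cannot be told apart in any value given here.

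In a nerve terminal, vesicles filled with transmitter are tethered near the release site, docked and primed by Munc13 and RIM proteins, and fused by SNARE proteins when a synaptotagmin binds calcium. Complexin holds the assembled SNARE complex ready, and afterwards NSF and its adaptor take the complex apart while dynamin pinches off membrane for new vesicles. Many of these proteins exist as paralogs that differ between neurons. In cortex, synaptotagmin 2, synaptobrevin 1 and complexin 1 are typical of the terminals of fast-spiking interneurons, most of which make parvalbumin, whereas synaptotagmin 1 and synaptobrevin 2 are widespread.

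The stretch just upstream of the annotated start is shown for the 3 genes typical of fast-spiking terminals and for Rab3b, the member whose ketamine mice all lay above all saline mice. The sequences are from RefSeq on GRCm38.p6, written in the direction of the gene, and capitals mark the letters GGGCGG of a GC box, CCAAT of a CCAAT box, or those of a TATA box (TATAAA), on either strand. They span chr1:134646362-134646533 on the plus strand for Syt2, chr6:125215331-125215580 on the plus strand for Vamp1, chr5:108550028-108550277 on the minus strand for Cplx1 and chr4:108878820-108879069 on the plus strand for Rab3b.
Syt2: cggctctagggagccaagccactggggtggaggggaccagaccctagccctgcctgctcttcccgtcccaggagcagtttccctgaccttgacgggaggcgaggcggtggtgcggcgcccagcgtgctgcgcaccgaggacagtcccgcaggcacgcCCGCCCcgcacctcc
Vamp1: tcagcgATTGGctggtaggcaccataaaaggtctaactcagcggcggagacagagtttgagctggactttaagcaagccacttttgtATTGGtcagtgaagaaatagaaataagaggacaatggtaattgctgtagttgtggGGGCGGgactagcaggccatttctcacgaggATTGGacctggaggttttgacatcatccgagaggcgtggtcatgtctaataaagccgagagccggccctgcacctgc
Cplx1: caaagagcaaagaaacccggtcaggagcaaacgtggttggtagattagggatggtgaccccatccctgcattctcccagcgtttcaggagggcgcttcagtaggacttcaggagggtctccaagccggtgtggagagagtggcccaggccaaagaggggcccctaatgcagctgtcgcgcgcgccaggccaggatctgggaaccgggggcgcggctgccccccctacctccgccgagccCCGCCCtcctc
Rab3b: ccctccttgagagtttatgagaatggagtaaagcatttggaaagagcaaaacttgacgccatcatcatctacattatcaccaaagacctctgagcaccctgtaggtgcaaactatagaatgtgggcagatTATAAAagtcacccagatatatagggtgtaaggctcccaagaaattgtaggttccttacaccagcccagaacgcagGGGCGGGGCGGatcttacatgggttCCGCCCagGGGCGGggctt
Each of the 4 windows held GGGCGG, Vamp1 also held 3 copies of CCAAT, and Rab3b held TATAAA. Windows of up to 250 bases were found for 28 members, which had 35 windows in all because some genes have several starts. GGGCGG occurred in 22 of these 35 windows (62.9%) and in 32.7% of 32851 windows of all genes, CCAAT in 11 (31.4%) against 33.8%, and TATAAA in 3 (8.57%) against 12.4%. The median GC content was 60.8% in the members' windows and 52.4% in all windows. These matches describe the letters of the windows and do not show that a factor binds there.

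The libraries held between 26273436 and 32643726 reads, and their size factors lay between 0.911 and 1.103. Several libraries stood apart in genes of other cell types. A mouse's score for a list of markers averages their log2 values, less the saline average. Saline mouse 10 stood out for oligodendrocyte genes, with a score of 1.88 and a sum of 388058 normalized counts over 8 genes, where the other libraries had sums between 45188 and 164770. Ketamine mice 3 and 5 stood out for striatal genes, with scores of 3.26 and 2.28 against values between -0.14 and 0.27 in the other 4 mice. All ketamine mice were above all saline mice for olfactory bulb genes, with scores of 2.73, 1.75 and 4.96. Of the defining markers, Isl1 was at 0 in saline mice 1 and 6 and Barhl2 in saline mouse 6. Cortical excitatory genes, which mark the labelled tissue, were detected in every library, and 11 of their 12 had a lower mean in ketamine, with sums between 128803 and 161358 in the saline mice and between 79810 and 127952 in the ketamine mice. Their scores were 0.16, 0.06 and -0.22 in the saline mice and -0.91, -0.25 and -0.69 in the ketamine mice, without overlap between the groups. The 7 pan-GABAergic genes had sums between 23896 and 27547 in the saline mice and between 31996 and 47771 in the ketamine mice. In contrast, the scores of 12 pan-neuronal genes overlapped, lying between -0.18 and 0.16 in the saline mice and between -0.07 and -0.05 in the ketamine mice. The part of these differences in the results that follow was not tested.

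Levels of different genes were compared as normalized counts per kilobase of exon, averaged over the saline mice. The order ran from Snap25, a SNARE of the plasma membrane, at 11209 ± 1926 (SD, n = 3) to Syn3, the rarest synapsin, at 26.4 ± 6.63. Snap25 was followed by Syp, which encodes synaptophysin, at 8756 ± 1172, and by Vamp2, the widespread vesicle SNARE, at 7823 ± 886. At the other end, the third from last was Unc13c, a Munc13 paralog, and Sv2c, a vesicle glycoprotein, had 51.8 ± 12.1. Snap25 was above 99.7% of the genes with a known length and Syn3 above 19.3% of them. Between neighbours in this order, the ranges over the saline mice were separate only for Syn2 above Syngr3, Napa above Syt7, Unc13c above Sv2c and Sv2c above Syn3. Among the 36, the commonest gene of several families was far above the rarest. Syt1 had 6315 ± 1645 per kilobase against 217.9 ± 152 for Syt2, and Unc13a had 1431 ± 355 against 95.2 ± 16.1 for Unc13c. In other families the genes among the 36 were closer, with 7798 ± 1192 for Cplx1 and 7684 ± 722 for Cplx2. Likewise, Syngr1 had 3967 ± 960 and Syngr3 had 1909 ± 213. Their paralogs Cplx3 and Syngr2, which are not among the 36, were far lower, at 104.2 ± 40.6 and 113.0 ± 54.1. The saline ranges of Doc2a and Doc2b overlapped, from 355.7 to 805.3 and from 68.6 to 364.1. Reads of 10 members could include those of a gene overlapping on the opposite strand, since the strand setting of the counting was not given in the sources used here. The overlap matters most for Syn3, which shares 1733 exon bases with Timp3, a gene with a mean of 3291 normalized counts, and for Doc2a, which shares 951 with Ino80e, at 812.9.

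**Figure D1:**
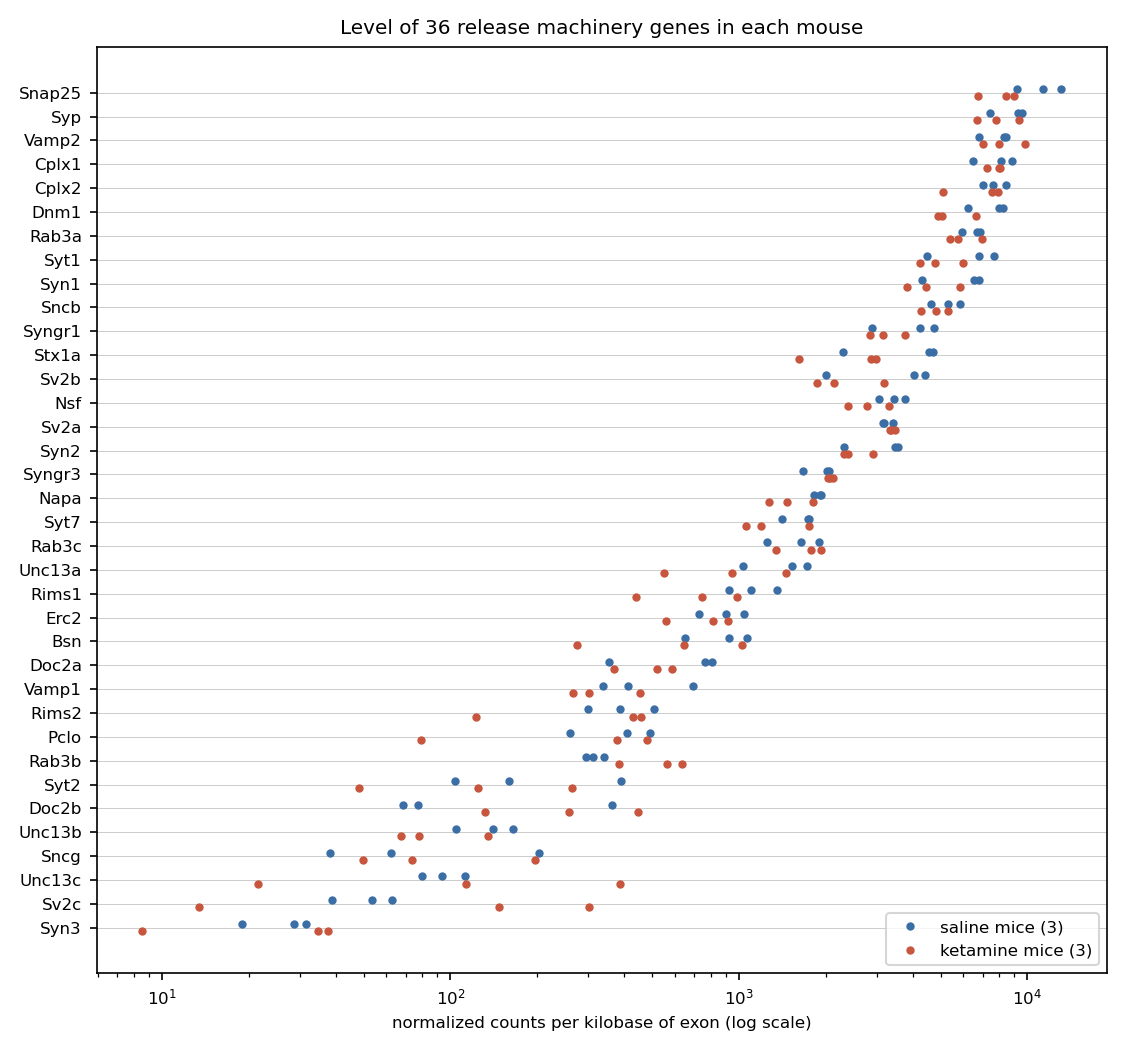
Level of each of the 36 genes in each mouse, in normalized counts per kilobase of exon on a log axis, ordered by the mean of the 3 saline mice (blue; ketamine mice in red). The saline means run from 11209 for Snap25 down to 26.4 for Syn3.

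The comparison of ketamine with saline asks whether 5 days of ketamine altered the transcripts of the release machinery 2 days later. Most members had a lower mean log2 value in the ketamine mice, 26 of 36 (72.2%) against 53% of all genes tested, and their median log2 fold change was -0.28 against -0.01 for all genes. None of them passed the test, in either direction. By limma on log2(normalized count + 1), 0 members and 0 of 16127 genes (0%) had an adjusted p under 0.05, and 1 member, which was higher, had an unadjusted p under 0.05. That held for 5.81% of all genes, 3.44% of them higher and 2.37% lower in ketamine. With edgeR on the recovered reads, 0 members and 0% of genes were called. By that test 2 members (5.56%) had an unadjusted p under 0.05, as did 6.24% of all genes. DESeq2, the package of the study's methods, called 0 members where it called 1.13% of all genes. By DESeq2, 4 members (11.1%) had an unadjusted p under 0.05, of which 1 was higher and 3 were lower. That held for 6.54% of all genes, with 2.60% of all genes being lower. In 1 member all ketamine mice were above all saline mice, which held for 5.69% of genes. In 2 members all ketamine mice were below, which held for 4.66% of genes. Adding 1 before the logarithm can shrink the fold changes of genes with low counts. Sncg, with a mean of 88.4 normalized counts, was the lowest of the 36, and its log2 fold change was 0.19 by limma and 0.082 by DESeq2. These values cannot isolate the effect of the added 1, because limma compares mean log2 values and DESeq2 compares mean counts.

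**Figure D2:**
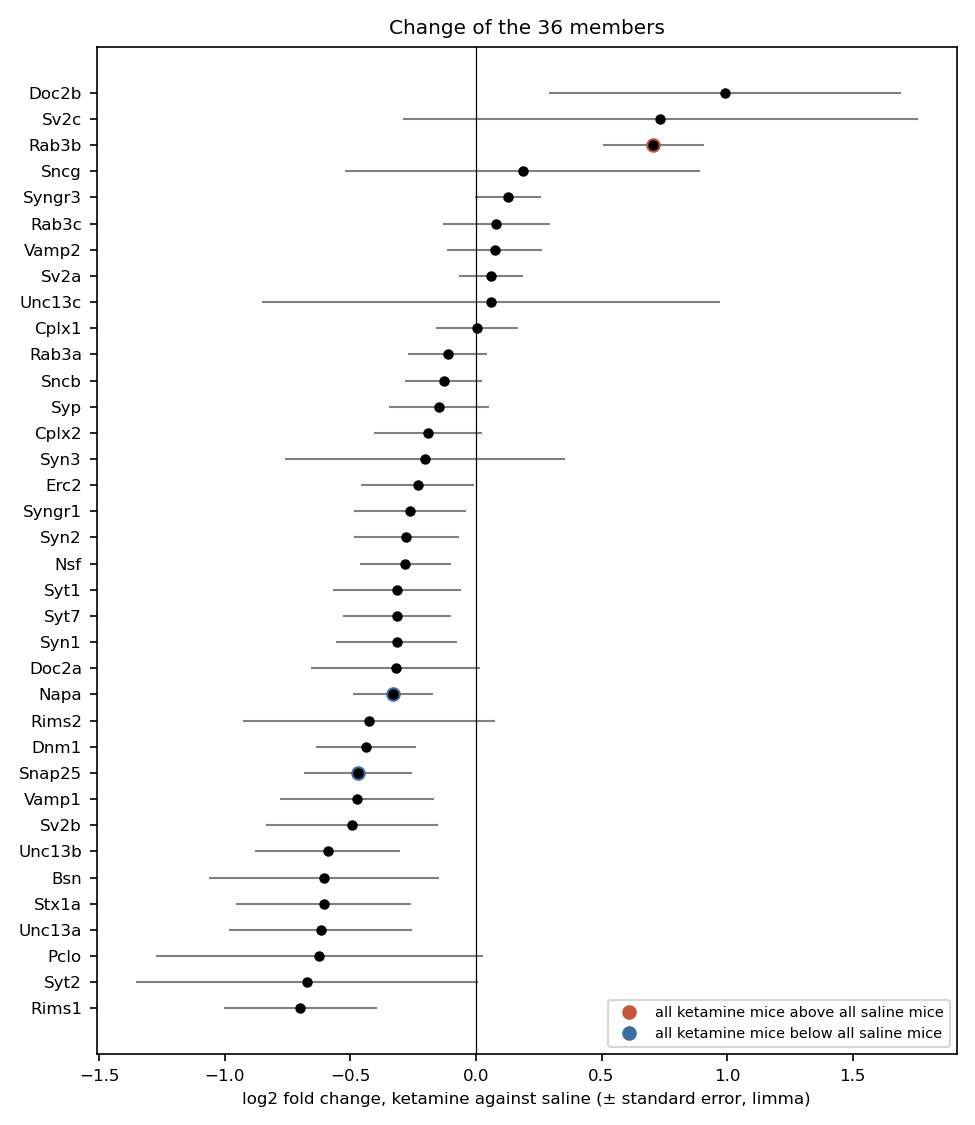
Log2 fold change of each gene in ketamine against saline with its standard error (SE) by limma, 3 mice against 3, ordered by size. The point ringed in red, Rab3b, and the points ringed in blue, Snap25 and Napa, are those whose groups did not overlap.

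The mice of a group differed widely from each other in these genes. The median member was 0.15 and 0.05 above the saline mean in saline mice 1 and 6 but 0.24 below it in saline mouse 10, on the log2 scale. In ketamine mice 3, 5 and 9 it was 0.28, 0.03 and 0.48 below. Saline mouse 10 was the lowest of the saline mice for 28 of 36 members, where it was so for 44.1% of all genes, and ketamine mouse 9 was the lowest of the 6 mice for 18 members (50%), where it was so for 29.1% of all genes. Saline mouse 1 was the highest of 6 for 18 members, where it was so for 19.5% of all genes. Ketamine mouse 5 was the lowest for 0 members, where it was so for 15.1% of all genes. The 36 genes took 2.01%, 1.91% and 1.59% of the counts in the saline mice and 1.54%, 1.75% and 1.55% in the ketamine mice, so that these shares overlapped. The count of lower members was 28 without saline mouse 10, with a median log2 fold change of -0.37 and 13 members at an unadjusted p under 0.05, a share of 36.1% where 11.04% of all genes reached it. Without ketamine mouse 9 it was 24, with a median of -0.17 and 3 members at an unadjusted p under 0.05, where 10.1% of all genes reached it. Without ketamine mice 3 and 5, whose striatal scores were high, it was 27, with 12 members at an unadjusted p under 0.05, where 21.0% of all genes reached it.

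**Figure D3:**
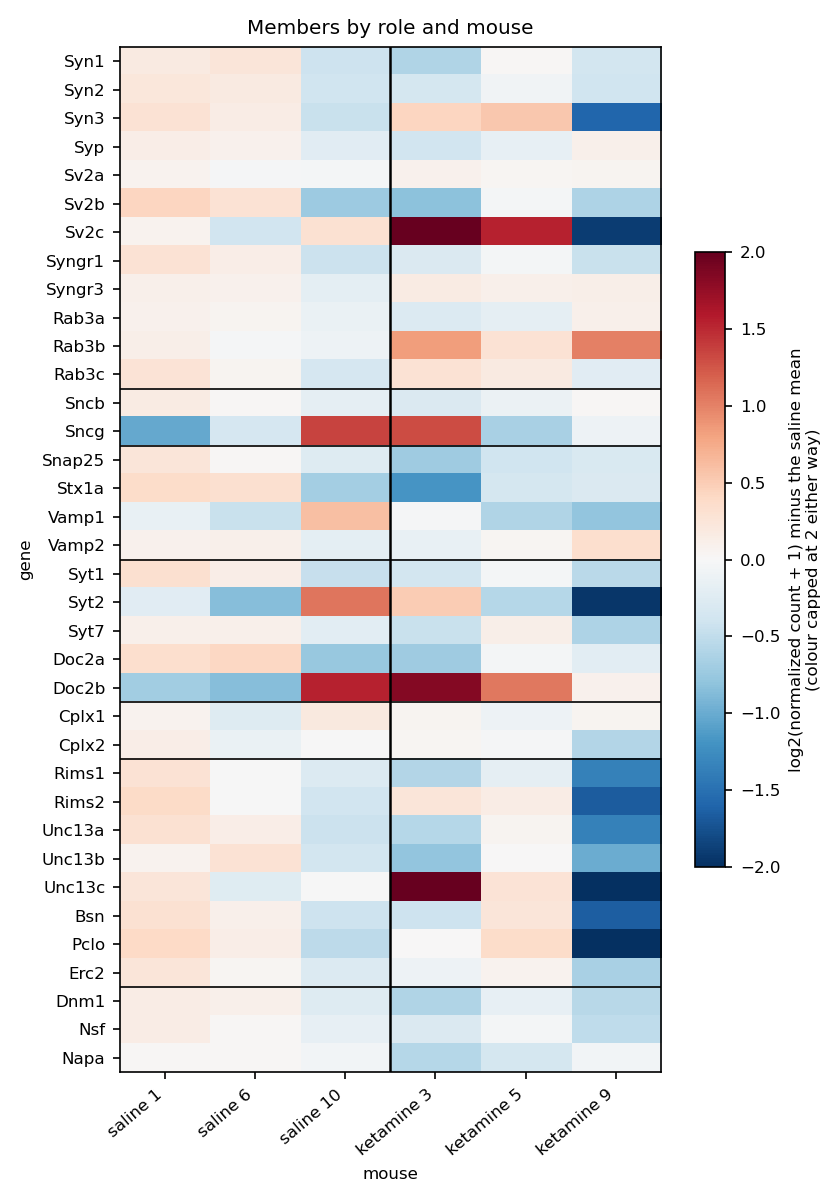
Log2(normalized count + 1) of each gene in each mouse minus the mean of the 3 saline mice, with colours limited to 2 in either direction. Horizontal lines part the roles, from the top vesicle proteins, synucleins, SNAREs, calcium sensors, complexins, priming and active zone proteins and recycling proteins, and the darkest blue lies in ketamine mouse 9, in Sv2c, Syt2, Unc13c and Pclo among others.

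Among the 12 vesicle proteins, ketamine gave lower means for 7 and higher means for 5, and the median log2 fold change was -0.13. Rab3b, one of the small GTPases on the vesicle surface, was the member with the smallest p. Its gene (ENSMUSG00000003411) lies on chromosome 4 of mm9, from 108551668 to 108615929 on the plus strand, where a rarely counted gene on the other strand shares 317 exon bases. It had 1204, 1097 and 1037 normalized counts in the saline mice and 1978, 1350 and 2231 in the ketamine mice. Each ketamine mouse was thus above the highest saline mouse, ketamine mouse 5 by the least. The log2 fold change was 0.71 (SE 0.201), with an adjusted p of 0.579 by limma and of 0.0904 by DESeq2, and the exact permutation test gave p = 0.1 (two-sided), the smallest that 3 mice against 3 allow. Leaving out any 1 mouse gave values between 0.56 and 0.92. Its paralogs Rab3a and Rab3c had log2 fold changes of -0.11 and 0.08. The order of the ketamine mice for Rab3b, with mouse 9 above mouse 3 and mouse 3 above mouse 5, was also that of the pan-GABAergic and olfactory bulb scores, whose part in the difference was not tested.

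Of the other vesicle proteins, the glycoprotein Sv2a was the steadiest member, with 15924, 14772 and 14618 normalized counts in the saline mice and 16103, 15497 and 15594 in the ketamine mice, a ratio of 1.102 between the highest and the lowest mouse. Its paralog Sv2c was the most variable, with 234.7, 170.8 and 275.6 in the saline mice and 1324, 648.2 and 58.9 in the ketamine mice. Sv2c thus exceeded every saline mouse in the pair of ketamine mice with high striatal scores and was lowest of all in ketamine mouse 9, a ratio of 22.5 between mice. Its log2 fold change of 0.73 (SE 1.03) was 1.58 by DESeq2, turned to -0.18 without ketamine mouse 3 and to -1.90 without ketamine mice 3 and 5. Sv2a and Sv2c were chosen here after their values were seen, as the ends of this range. The synapsins Syn1 and Syn2, which tether vesicles to the cytoskeleton, had log2 fold changes of -0.31 and -0.28. Syp had 49942, 48298 and 38638 normalized counts in the saline mice and 34867, 40504 and 48556 in the ketamine mice, overlapping groups with a log2 fold change of -0.15. For Syn3, which had 388.0, 353.2 and 232.8 normalized counts in the saline mice and 426.8, 463.8 and 105.2 in the ketamine mice, the fold change of -0.20 rested on mouse 9, and it was 0.49 without that mouse. The remaining vesicle proteins, Sv2b, Syngr1 and Syngr3, lay between -0.49 and 0.13. Both synucleins, small proteins that bind vesicle membrane, were within their error, with log2 fold changes of -0.13 for Sncb (SE 0.154) and 0.19 for Sncg (SE 0.706).

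The 4 SNAREs, which form the complex that fuses vesicle and plasma membrane, included 3 lower and 1 higher, at a median log2 fold change of -0.47. Snap25 (ENSMUSG00000027273; chromosome 2 of mm9, 136539189 to 136608164, plus strand) had 88861, 76780 and 62728 normalized counts in the saline mice. In ketamine mice 3, 5 and 9 it had 45831, 57308 and 61183. The groups did not overlap, although ketamine mouse 9 was below saline mouse 10 by a small margin, and when the trend with exon length described further on was removed the groups overlapped. The log2 fold change was -0.47 (SE 0.216), with an adjusted p of 0.896 by limma and of 0.505 by DESeq2 (exact permutation test, two-sided, p = 0.1). Stx1a, the syntaxin that pairs with it, had 12531, 12132 and 6116 in the saline mice and 4315, 7645 and 7988 in the ketamine mice. Saline mouse 10 was here below ketamine mice 5 and 9, and the log2 fold change was -0.61 (SE 0.349, adjusted p = 0.999 by limma). Without saline mouse 10 it was -0.94 and without ketamine mouse 3 it was -0.32. Vamp2 had 31490, 31991 and 25912 in the saline mice and 26757, 30452 and 37374 in the ketamine mice, with a log2 fold change of 0.07 (SE 0.188). The scores of cortical excitatory genes were also lower in every ketamine mouse and lowest of the saline mice in mouse 10. Among the ketamine mice, however, that score was highest in mouse 5, whereas Snap25 and Stx1a were highest in mouse 9. The part of cortical excitatory genes in the values of Snap25 and Stx1a was not tested.

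Of the 5 calcium sensors, 4 were lower in ketamine and 1 was higher, with a median of -0.31. Syt1, the main sensor of fast release, and Syt7, which serves slower release, each had a log2 fold change of -0.31. The pair of Doc2 genes, whose proteins sense calcium at low concentrations, had fold changes of opposite sign, with -0.32 for Doc2a and 0.99 for Doc2b (SEs 0.338 and 0.699). Doc2b, looked at because its fold change by limma was the highest of the 36, had 336.2, 299.2 and 1588 normalized counts in the saline mice and 1946, 1128 and 574.7 in the ketamine mice. It was thus high in saline mouse 10, where the oligodendrocyte score was highest, and in ketamine mice 3 and 5, where striatal scores were highest. The part of either in these values was not tested. Its log2 fold change was 1.77 without saline mouse 10 and 0.57 without ketamine mouse 3. By DESeq2, which compares mean counts, it was 0.72, below the values of Sv2c, Unc13c and Rab3b.

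None of the 3 genes typical of fast-spiking terminals passed the test, and ketamine and saline mice overlapped in each. Their saline levels were far apart, at 7798 per kilobase for Cplx1, 482.2 for Vamp1 and 217.9 for Syt2. Which cells of the whole tissue these counts came from cannot be told. Syt2 (ENSMUSG00000026452; chromosome 1 of mm9, 136605877 to 136649726, plus strand) had 1098, 712.2 and 2687 normalized counts in the saline mice and 1813, 858.0 and 332.7 in the ketamine mice. The highest and lowest mouse differed by a factor of 8.08. The log2 fold change was -0.67 (SE 0.682, adjusted p = 0.999 by limma, exact permutation p = 0.5), and it shrank to -0.04 without ketamine mouse 9 or grew to -1.26 without ketamine mouse 3. Vamp1 (ENSMUSG00000030337; chromosome 6, 125165569 to 125194561, plus strand) had 3622, 2957 and 6074 in the saline mice and 3957, 2644 and 2322 in the ketamine mice. Like Syt2, it was highest in saline mouse 10 and lowest in ketamine mouse 9, with a log2 fold change of -0.47 (SE 0.307, adjusted p = 0.999 by limma, exact permutation p = 0.3), which was -0.18 without saline mouse 10 and -0.31 without ketamine mouse 9. Cplx1 (ENSMUSG00000033615; chromosome 5, 108947573 to 108979043, minus strand) had 17724, 14196 and 19288 in the saline mice and 17509, 15846 and 17629 in the ketamine mice. All 3 ketamine mice lay within the range of the saline mice, and the log2 fold change was 0.0038 (SE 0.164, exact permutation p = 1).
Pvalb, the gene of parvalbumin, had 1105, 893 and 2261 normalized counts in the saline mice and 535, 516 and 670 in the ketamine mice. Its order over the mice resembled that of Syt2 and Vamp1 in saline, where mouse 10 was highest for all 3 genes, but not in ketamine, where mouse 9 was highest for Pvalb and lowest for Syt2 and Vamp1. Exons span 1.04 kilobases for Pvalb, 6.88 for Syt2 and 8.75 for Vamp1. In mouse 9, genes with long exons were low at the median, as described further on. With that trend removed, Vamp1 was lowest in ketamine mouse 5, at -0.74 from the saline mean on the log2 scale, against -0.41 in mouse 9. Syt2 remained lowest in mouse 9, at -1.67. The part of exon length in the contrast with Pvalb was not tested. Of the 10 fast-spiking markers, the groups were separate for 5, named here after their values were seen. Over all genes tested, all ketamine mice were higher for 5.69% and lower for 4.66%. Pvalb, Kcnc2 and Kcns3, the last 2 of which encode potassium channel subunits, were lower in every ketamine mouse, with log2 fold changes of -1.20, -0.52 and -0.91. Tac1 and Pthlh, which encode a tachykinin precursor and a hormone-like peptide, were higher in every ketamine mouse, with 2.17 and 0.46. By limma 0 of the 5 were called, with adjusted p between 0.380 and 0.986, and DESeq2 called Pvalb (adjusted p = 0.0321), Kcnc2 (0.0105) and Tac1 (0.000126). Of all genes, DESeq2 called 1.13%. Kcnc2 had between 3569 and 3657 in the saline mice and between 2335 and 2650 in the ketamine mice. Tac1, which is also among the striatal markers, had 342.0, 377.4 and 296.5 in the saline mice and 3260, 1672 and 644.5 in the ketamine mice, and was highest in the pair of ketamine mice with high striatal scores. Over all 10, 3 were higher and 7 lower in ketamine, with summed levels between 10644 and 13509 in the saline mice and between 7845 and 12780 in the ketamine mice, and the scores of the groups overlapped.

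**Figure D4:**
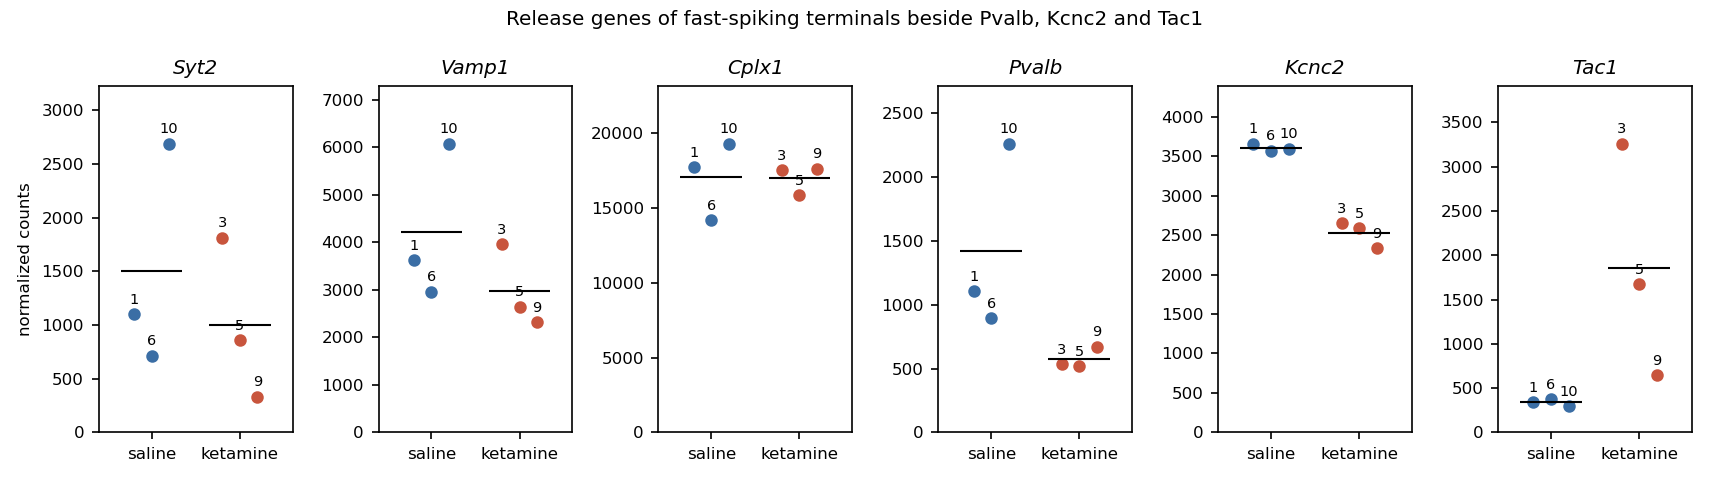
Normalized counts of Syt2, Vamp1, Cplx1, Pvalb, Kcnc2 and Tac1 in each mouse, labelled by its number, with a line at the mean of each group of 3. Ketamine and saline mice overlap for the release genes Syt2, Vamp1 and Cplx1 and are separate for Pvalb and Kcnc2, which are lower in ketamine, and for Tac1, which is higher.

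The 8 priming and active zone proteins had the lowest median of the roles, -0.60, with 7 lower and 1 higher in ketamine. Rims1 (ENSMUSG00000041670; chromosome 1 of mm9, 22276332 to 22911673, minus strand), whose protein RIM1 ties vesicles to calcium channels, had the lowest fold change of the 36 by limma. It had 9852, 8009 and 6694 normalized counts in the saline mice and 5409, 7170 and 3182 in the ketamine mice. Ketamine mouse 5 was above saline mouse 10, and the log2 fold change was -0.70 (SE 0.304), with an adjusted p of 0.865 by limma and of 0.712 by DESeq2 (exact permutation p = 0.2). Without ketamine mouse 9 it was -0.38. Unc13a and Unc13b, whose Munc13 proteins open syntaxin for fusion, followed the same order of mice within ketamine. Unc13a had 14800, 13075 and 8885 in the saline mice and 8088, 12506 and 4705 in the ketamine mice, with a log2 fold change of -0.62 (SE 0.365). Unc13b had 1904, 2225 and 1410 in the saline mice and 1052, 1818 and 913.7 in the ketamine mice, with a log2 fold change of -0.59 (SE 0.288). In both, ketamine mouse 5 was within the saline range, so that neither comparison separated the groups. Without ketamine mouse 9 their log2 fold changes were -0.25 and -0.39. Unc13c, a paralog known for its expression in cerebellum, had 742.4, 529.8 and 621.5 in the saline mice and 2570, 752.6 and 142.3 in the ketamine mice. It was the 1 gene of this role with a positive fold change, 0.06 (SE 0.912), which without ketamine mouse 3 was -0.93 and by DESeq2 was 0.88.
The giant scaffolds Bsn and Pclo, which span the active zone, had log2 fold changes of -0.60 and -0.62 (SEs 0.458 and 0.651), and Rims2 and Erc2 had -0.43 and -0.23. Without ketamine mouse 9 the log2 fold changes of Bsn and Erc2 were -0.08 and -0.02. Pclo, picked after its values were seen as the member with the longest exons, had 10065, 8354 and 5323 in the saline mice, but 7711, 9834 and 1613 in the ketamine mice, of which mouse 9 was thus far below the others. Without that mouse its log2 fold change was 0.19, and so was that of Rims2. By DESeq2 these genes had -0.30 and -0.23.

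All 3 recycling genes were lower in ketamine, with a median of -0.33. Dnm1, the neuronal dynamin, had 43166, 41652 and 32641 normalized counts in the saline mice and 25708, 34740 and 26415 in the ketamine mice. Ketamine mouse 5 was above saline mouse 10, and the log2 fold change was -0.44 (SE 0.199), with an adjusted p of 0.889 by limma and of 0.607 by DESeq2 (exact permutation p = 0.2). Napa (ENSMUSG00000006024; chromosome 7 of mm9, 16683807 to 16703324, plus strand), which encodes the adaptor alpha-SNAP, had 7267, 7250 and 6908 in the saline mice and 4805, 5567 and 6856 in the ketamine mice. The saline mice lay close together, with a mean of 7142 ± 202 (SD, n = 3), and all ketamine mice were below them, mouse 9 by a small margin. The log2 fold change was -0.33 (SE 0.158), with an adjusted p of 0.922 by limma and of 0.943 by DESeq2 (exact permutation p = 0.1), and without ketamine mouse 3 the fold change was -0.21. Nsf, the ATPase that works with it, had -0.28 (SE 0.181). Of the complexins, Cplx2 had -0.19 (SE 0.214) beside the value of Cplx1 given above.

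A ratio of 2 paralogs within a library does not depend on how the libraries were scaled. It was taken for 13 pairs of members, and the groups were separate for 1 of them. The log2 ratio of Rab3b to Rab3a was -3.66, -3.76 and -3.67 in the saline mice and -2.60, -3.24 and -2.80 in the ketamine mice. Its mean was -3.70 ± 0.0574 in saline and -2.88 ± 0.328 in ketamine, a difference of 0.82 (exact permutation test, two-sided, p = 0.1, adjusted p = 0.929 over the 13 pairs). Among the other pairs, the log2 ratio of Vamp1 to Vamp2 differed by -0.55 and that of Syt2 to Syt1 by -0.36 (exact permutation p = 0.4 and p = 0.7). For Cplx1 to Cplx2 it was higher by 0.19 (exact permutation p = 0.5).

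In ketamine mouse 9, genes with long exons were low at the median. In the 1049 genes of up to 1 kilobase of exon, the median gene of this library was 0.36 above the saline mean on the log2 scale, and in the 111 genes over 16 kilobases it was 0.85 below. The same medians lay between -0.17 and 0.084 for the shortest genes and between -0.15 and 0.29 for the longest in the other 5 libraries. Over the 36 members, the deviation of ketamine mouse 9 from the saline mean was lower at greater exon length (Spearman's rho -0.71, against -0.40 over 16093 genes). Among the members, Syp, Sv2a and Doc2b were exceptions with exons over 4 kilobases, at 0.099, 0.047 and 0.082 above the saline mean. In the other libraries rho over the members was 0.34, 0.16 and -0.32 in the saline mice and -0.12 and 0.25 in ketamine mice 3 and 5, and over all genes it was 0.15, 0.028 and -0.13 and then 0.14 and 0.32. These values describe genes of a single library each, and genes are not independent replicates. Many of the members have long exons, with 25 of 36 over 4 kilobases, and the priming and active zone genes are all among these, from 5.40 kilobases for Rims2 to 20.4 for Pclo. When the trend with length was removed from each library, a step added after seeing the data, 27 members were lower, with a median log2 fold change of -0.24, and 3 had an unadjusted p under 0.05, where 7.21% of all genes reached it. Pclo in ketamine mouse 9 then deviated by -1.40, where it had deviated by -2.25 before. The groups were then separate for Rims1, with a log2 fold change of -0.65 (adjusted p = 0.537 by limma), and for Nsf, and no longer for Snap25.

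**Figure D5:**
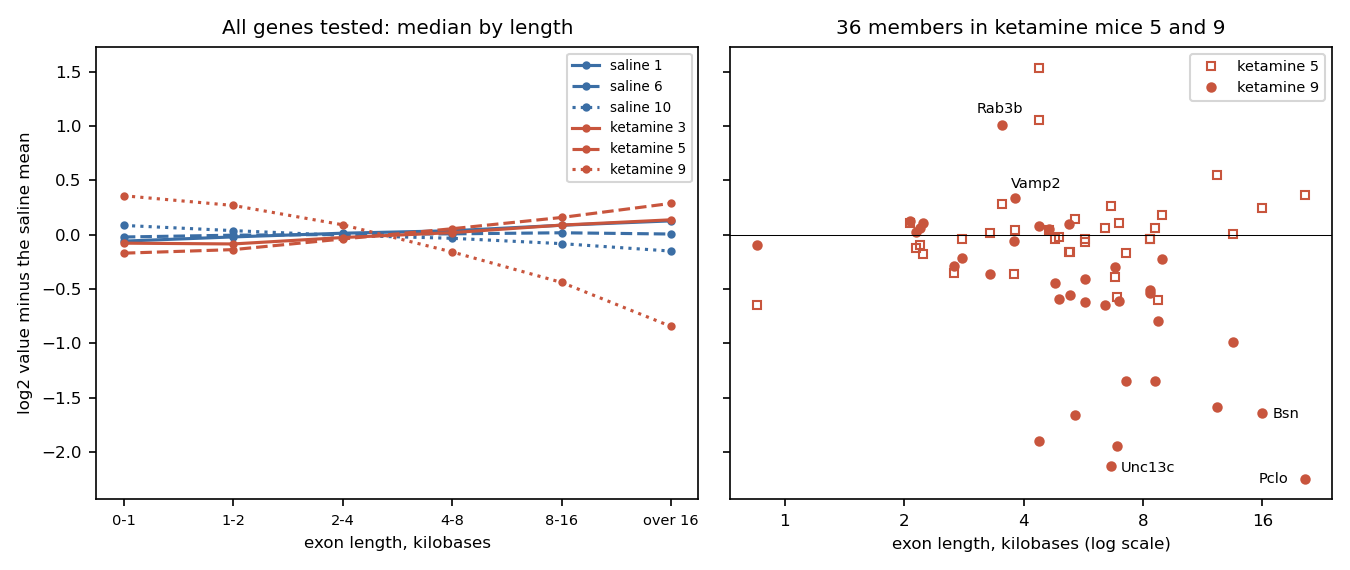
Left, the median over all genes tested of log2 value minus the saline mean, by exon length in kilobases, for each library; right, the same deviation of the 36 members in ketamine mice 5 and 9 against exon length on a log axis. The line of ketamine mouse 9 falls from 0.36 to -0.85 and the other 5 lines stay between -0.17 and 0.29.

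The rest of the release pathway was described with a list of 66 other genes, of which 65 were tested. Here too, most had a lower mean in ketamine, 47 of 65 (72.3%) against 53% of all genes tested, and the median of their log2 fold changes was -0.14. By limma 0 were called, and DESeq2 called 2, both higher, where it called 1.13% of all genes. All ketamine mice were above all saline mice for 4 genes (6.15%, against 5.69% of all genes). They were below for 3 (4.62%, against 4.66%), namely Syt13, Cadps and Syt12, named here after their values were seen. Lower genes were most common in the recycling role, with 14 of 16, and among other priming and active zone genes, with 10 of 12, while vesicular transporters were 3 of 6 in each direction. The genes called by DESeq2 were both synaptotagmins. Syt6 had 505.8, 351.3 and 404.1 normalized counts in the saline mice and 1763, 1277 and 1846 in the ketamine mice, a log2 fold change of 1.95 (SE 0.203) with an adjusted p of 0.124 by limma and of 5.59e-13 by DESeq2. Syt9 had 267.3, 234.5 and 187.8 in the saline mice and 482.6, 458.1 and 476.8 in the ketamine mice, a log2 fold change of 1.05 (SE 0.171) with an adjusted p of 0.211 by limma and of 6.82e-05 by DESeq2. In both genes each ketamine mouse was above each saline mouse, as for the olfactory bulb and pan-GABAergic scores, whose part was not tested. Syt10 had 89.1, 59.8 and 76.9 in the saline mice and 313.2, 224.8 and 97.0 in the ketamine mice.

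Vesicles are loaded by a transporter that fits their transmitter. Slc32a1, the vesicular transporter of GABA, had 2181, 1988 and 2806 normalized counts in the saline mice and 6090, 3143 and 3558 in the ketamine mice. All ketamine mice were above all saline mice, as they were for the pan-GABAergic score, and the log2 fold change was 0.83 (SE 0.267, adjusted p = 0.677 by limma and 0.165 by DESeq2). Slc17a7, the main vesicular glutamate transporter of cortex, had 49417, 48207 and 32973 in the saline mice and 22152, 40369 and 32985 in the ketamine mice. Its groups overlapped, and the log2 fold change was -0.47 (SE 0.276). Its paralogs Slc17a6 and Slc17a8 had log2 fold changes of 0.58 and -0.03 (SEs 0.426 and 0.501).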

How the data were processed

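RNA was sequenced from 3 saline and 3 ketamine mice. Each number in the sample titles was taken as 1 mouse, and p-values set the difference between groups against the variation between these mice. Those of limma, edgeR and DESeq2 also draw on the variation of other genes. Per the labels and methods, the authors aligned reads to mm9 with TopHat2 (version 2.0.11), counted them per gene with HTSeq and used DESeq2. The annotation and strand setting are not given in the sources used here. The deposited signal is counts divided by a size factor per library, called normalized counts. Low values were whole multiples of a step, and 100% of values gave whole reads within 0.1 read.

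Log2(normalized count + 1) was compared with limma 3.58.1 (R 4.3.3, trended prior variance, two-sided, Benjamini-Hochberg over 16127 genes with a mean of at least 10, threshold 0.05). DESeq2 1.42.0 and edgeR 4.0.16 were run on recovered reads as alternatives. Single values were compared by exact permutation over 20 assignments. Exon lengths are unions of GENCODE M1 exons on mm9, and 37205 identifiers were found in it. Promoter windows of 250 bases, cut at any earlier start of the same gene, are from RefSeq on GRCm38.p6. The fits were tested on simulated data.

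The members and lists were chosen with earlier results of these data known. Values in every mouse are given for Syt2, Vamp1 and Cplx1, for members whose groups do not overlap and for the 8 with the smallest p, with the 3 highest and 3 lowest levels per length, 6 other release genes, of which 2 are not reported here, and the 4 other release genes with the smallest p. Other genes are marked where named. Of the other marker lists, thalamic, astrocyte, microglial and vascular scores overlapped between the groups.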

Additional observations from a re-analysis of the deposited data

How the results depend on the processing

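No paired analysis was possible because saline and ketamine samples share no replicate number. Under pseudocounts of 0.1 and 5, no filter, a filter at a mean of 100 (which drops Sncg), recomputed size factors, TMM scaling, scaling to pan-neuronal genes, limma without a trend, edgeR, DESeq2 and removal of the trend with exon length, 0 members were called and between 25 and 27 were lower. The median log2 fold change of all genes moved by at most 0.06 under another scaling. Genes called numbered 182 by DESeq2, of which 145 were higher, against 0 by limma and edgeR. With each mouse left out in turn, 0 to 1 genes were called, 0 members were called, 24 to 31 members were lower, 5 to 12 were higher, and their median lay between -0.39 and -0.16.

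Among the fold changes that edgeR and DESeq2 placed away from the limma values without a turn were those of Sv2c (1.59 and 1.58 against 0.73), Unc13c (0.89 and 0.88 against 0.06) and Pclo (-0.29 and -0.30 against -0.62). Others were those of Doc2b (0.72 and 0.72 against 0.99), Rims2 (-0.22 and -0.23 against -0.43), Bsn (-0.43 and -0.44 against -0.60) and Sncg (0.092 and 0.082 against 0.19). The sign of a fold change turned for Syn3 with edgeR (0.047) and DESeq2 (0.039), and for Cplx1 with DESeq2 (-0.00028) and without the length trend (-0.0015). Without ketamine mice 3 and 5, in a fit that assumes the lone ketamine mouse to vary like the saline mice, it turned for Syp (0.099), Sv2c (-1.90), Rab3a (0.11), Rab3c (-0.22), Sncb (0.023), Sncg (-0.098) and Unc13c (-2.13). With each mouse left out in turn it turned for 10 of 36 members, with ranges of -0.58 to 0.49 for Syn3, -0.18 to 2.05 for Sv2c, -0.084 to 0.23 for Rab3c, -0.37 to 0.86 for Sncg, -0.055 to 0.19 for Vamp2, -0.12 to 0.098 for Cplx1, -0.31 to 0.010 for Cplx2, -0.76 to 0.19 for Rims2, -0.93 to 1.15 for Unc13c and -1.12 to 0.19 for Pclo. Log2 ratios that turned had ranges of -0.97 to 0.40 for Syt2 to Syt1, -0.034 to 0.33 for Cplx1 to Cplx2, -0.061 to 0.099 for Syn2 to Syn1, -0.22 to 1.99 for Sv2c to Sv2a, -0.14 to 0.15 for Unc13b to Unc13a, -0.29 to 1.40 for Unc13c to Unc13a and -0.24 to 0.27 for Pclo to Bsn. None of these was called in any setting. The cause was not tested.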
